A study of Mus musculus with 28 samples.

Results

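A set of 7 genes, *Dpp4*, *Pi16*, *Cd55*, *Cd34*, *Icam1*, *F3* and *Clec11a*, was followed in sorted mouse mammary cells. These genes mark interstitial progenitors, committed preadipocytes and a population reported as regulatory in adipose stroma. They were taken by symbol from the deposited count table, which held a row for each of the 7 among its 50600 gene IDs. The 28 libraries came from 7 adult female PdgfrαCre R26mTmG mice of strain C57BL/6, aged 10 to 12 weeks by the methods, of which 4 were untreated and 3 received estrogen and progesterone (E+P). Each mouse gave 4 sorted populations, GFP+ stroma, tdTomato+ stroma, GFP+ luminal cells and tdTomato+ luminal cells, so that every group held 4 untreated or 3 E+P libraries. All mice carry the same Cre and reporter alleles. The Cre is constitutive under *Pdgfra* control, so GFP marks cells that expressed it at any time and their progeny, and tdTomato marks cells in which no excision took place. Stroma was gated as CD49f-EpCAM- and luminal cells as CD49f lo EpCAM+ after exclusion of CD31, CD45 and Ter119. The methods describe E+P as 14-day pellets of 0.14 mg estradiol and 14 mg progesterone, in a sentence on wild-type mice.

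In white adipose tissue, DPP4+ cells lie in the fibrous interstitium that surrounds the fat lobules and are regarded as the least committed mesenchymal progenitors. They give rise to ICAM1+ preadipocytes, which are committed to the adipocyte fate. CD142+ cells, named for the protein product of *F3*, have been reported to restrain adipocyte formation. The mammary epithelium grows within such a fat pad, and estrogen and progesterone drive its branching and alveolar growth.

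The members have distinct roles. *Dpp4* (ENSMUSG00000035000.8, chromosome 2, 62330073 to 62412231, minus strand, GRCm38 for all coordinates) encodes a membrane dipeptidyl peptidase. *Pi16* (ENSMUSG00000024011.16, chromosome 17, 29317680 to 29330593, plus strand) encodes a membrane-anchored member of the CAP superfamily. *Cd55* (ENSMUSG00000026399.12, chromosome 1, 130439027 to 130462744, minus strand) encodes decay-accelerating factor, an inhibitor of complement. *Cd34* (ENSMUSG00000016494.9, chromosome 1, 194938819 to 194961279, plus strand) encodes a sialomucin that is found on many adipose stromal progenitors and on endothelium. *Icam1* (ENSMUSG00000037405.8, chromosome 9, 21015985 to 21028817, plus strand) encodes an adhesion molecule bound by leukocyte integrins. *F3* (ENSMUSG00000028128.13, chromosome 3, 121723537 to 121735048, plus strand) encodes tissue factor, which starts the extrinsic coagulation pathway. *Clec11a* (ENSMUSG00000004473.10, chromosome 7, 44302687 to 44306902, minus strand) encodes a secreted lectin with osteogenic activity. An annotated antisense gene overlaps *Dpp4*, *Pi16*, *Cd55*, *Cd34* and *Icam1*. The strand setting of the counting is not given in the sources used here, but where the antisense gene had a row its counts over 28 libraries, 13 to 365, were small beside those of the member, 28276 to 69656.

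The starts of these genes are shown because *Dpp4* and *Pi16* separated E+P from untreated GFP+ stroma while *Icam1* and *F3* overlapped between them. RefSeq (GRCm38.p6) gave a window for all 7 members, and the 250 bases before the RefSeq start of 4 of them are printed 5′ to 3′ with motif matches in capitals. The RefSeq start of *Pi16* differs from the gene start given above. Its stretch, 29318632 to 29318881, lies inside the gene as placed there, 29317680 to 29330593.
Dpp4, chr2:62412232-62412481, minus strand: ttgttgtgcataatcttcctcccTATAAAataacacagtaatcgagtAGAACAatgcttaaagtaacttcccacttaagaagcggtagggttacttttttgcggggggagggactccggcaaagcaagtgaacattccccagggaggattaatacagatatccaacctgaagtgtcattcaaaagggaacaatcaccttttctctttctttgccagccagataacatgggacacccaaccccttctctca
Pi16, chr17:29318632-29318881, plus strand: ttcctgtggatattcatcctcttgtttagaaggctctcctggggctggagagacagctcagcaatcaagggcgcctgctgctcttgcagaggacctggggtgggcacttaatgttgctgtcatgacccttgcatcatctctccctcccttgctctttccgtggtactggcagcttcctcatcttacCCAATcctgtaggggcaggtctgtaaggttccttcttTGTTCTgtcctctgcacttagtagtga
Icam1, chr9:21015690-21015939, plus strand: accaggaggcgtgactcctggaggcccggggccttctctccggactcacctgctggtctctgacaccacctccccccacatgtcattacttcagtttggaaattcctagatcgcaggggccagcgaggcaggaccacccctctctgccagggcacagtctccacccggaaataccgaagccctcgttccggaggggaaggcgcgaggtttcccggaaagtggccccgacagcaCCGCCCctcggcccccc
F3, chr3:121723287-121723536, plus strand: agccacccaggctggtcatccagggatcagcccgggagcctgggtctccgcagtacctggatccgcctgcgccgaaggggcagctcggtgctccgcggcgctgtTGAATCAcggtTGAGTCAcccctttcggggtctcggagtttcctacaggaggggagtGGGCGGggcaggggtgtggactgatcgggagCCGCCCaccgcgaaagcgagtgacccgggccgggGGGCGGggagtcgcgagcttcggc
Both strands were searched for the TATA box TATAAA, the CCAAT box, the GC box GGGCGG, the AP-1 site TGANTCA (where N is any base), the progesterone receptor hexamer TGTTCT and the palindromic estrogen response element. The *Dpp4* stretch held TATAAA at base −227 from the start and the hexamer, read as AGAACA on the opposite strand, at −203. The *Pi16* stretch held CCAAT at −64 and the hexamer TGTTCT at −27. Windows with that hexamer made up 19.0% of the 32851 RefSeq windows, which also run 50 bases past the start, those with TATAAA made up 13.6% and those with the CCAAT box 37.4%. *Icam1* held the GGGCGG box on the opposite strand at −17, a motif of 35.7% of windows, and *F3* held it 3 times before the start. Past the start, in bases not printed, the *Icam1* window also held TATAAA at base 14 and the GC box at base 24. The *F3* window held the TATA box there on the opposite strand at base 44. *F3* also held TGAATCA at −146 and TGAGTCA at −135, matches to a motif of 7.81% of windows. The estrogen response element was found in 0.0700% of windows and in none of the windows of the 7 members. These matches describe letters in a window and say nothing of binding.

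Library totals ranged from 8623383 to 24583803 counts, and a gene with 3 counts stands at 0.122 to 0.348 CPM, its count scaled to the total of its library, a floor for counting error only since the kit used no molecular identifiers. No 2 libraries were identical. CPM below are scaled by edgeR's TMM factors and given in the order of replicates. The GFP+ stroma carried its labelled identity, with 8 fibroblast genes summing to between 31862 and 61334 CPM without hormones. The tdTomato+ stroma was a mixture, with 2350 to 6545 CPM of the same fibroblast genes, 7646 to 10671 CPM over 10 pericyte and smooth muscle genes and 2397 to 12409 CPM over 8 skeletal muscle genes without hormones. With E+P the fibroblast sum in tdTomato+ stroma was 1797 to 2310 CPM, the pericyte and smooth muscle sum 8030 to 8983 CPM and the skeletal muscle sum 6636 to 22002 CPM. The part of these cell types in the differences below was not tested, and in sorted bulk samples fewer cells of a type and less RNA per cell cannot be told apart.

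**Figure D1:**
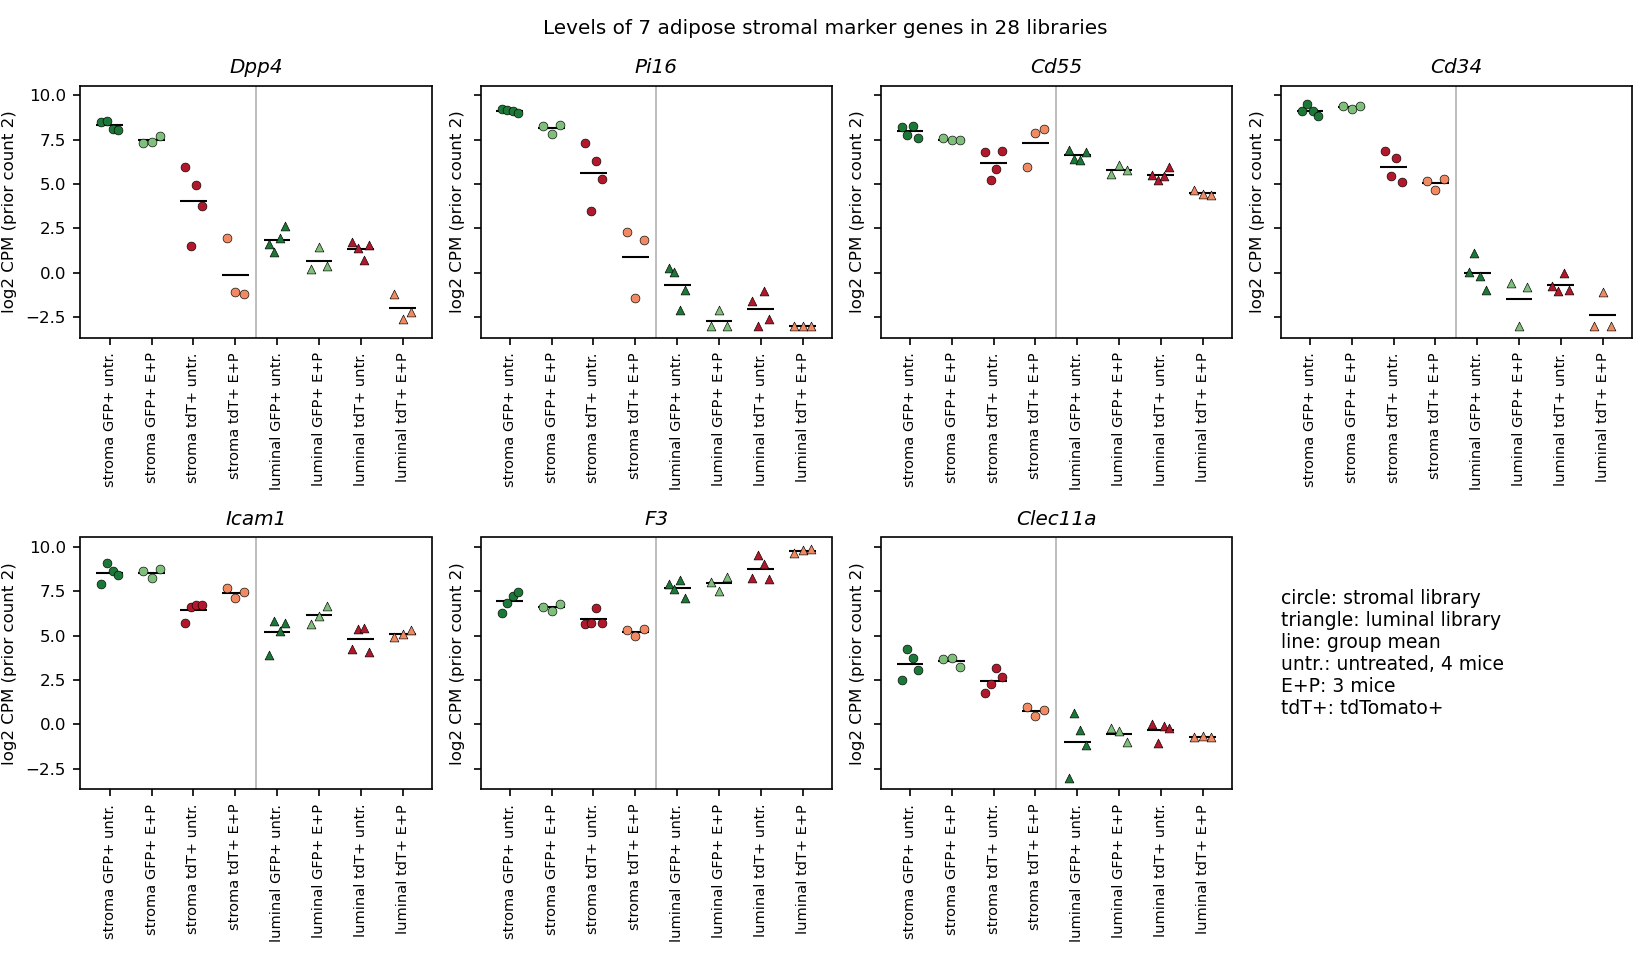
Each point is 1 library, plotted as log2 CPM with a prior count of 2, and each line is a group mean. *Dpp4*, *Pi16* and *Cd34* were highest in GFP+ stroma, whereas *F3* was highest in tdTomato+ luminal cells.

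The first question was which stromal subset carried the adipose markers. Over all mice, 6 of the 7 genes were higher in GFP+ than in tdTomato+ stroma, against 42.0% of the 17783 genes tested called in either direction and 20.6% called higher in GFP+ stroma (edgeR quasi-likelihood test, adjusted p under 0.01). *Dpp4* led by log2 fold change, followed by *Pi16* and *Cd34*. *Cd55* was the gene that edgeR did not call. In each mouse, the GFP+ level of *Dpp4*, *Pi16*, *Cd34*, *Icam1*, *F3* and *Clec11a* exceeded the tdTomato+ level, which gave p = 0.0156 for each in an exact two-sided sign-flip test over 7 mice, the smallest p that 7 mice allow. The test was run for 7 genes.

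*Dpp4* was counted at 363, 381, 274 and 261 CPM in untreated GFP+ stroma, and at 61.8, 2.71, 30.9 and 13.4 CPM in tdTomato+ stroma of the same mice. The groups did not overlap, and the tdTomato+ libraries were spread far more widely on a log scale than the GFP+ ones. With E+P it stood at 161, 164 and 210 CPM in GFP+ stroma and at 3.78, 0.346 and 0.306 CPM in tdTomato+ stroma. *Dpp4* differed between the subsets by 3.54 ± 0.79 (log2, standard error) without hormones (adjusted p = 0.0041, edgeR), 6.86 ± 1.12 with E+P (adjusted p = 4.9e-04) and 5.20 ± 0.69 over all mice (adjusted p = 5.7e-05).

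*Pi16* followed *Dpp4*. Without hormones it was counted at 591, 580, 547 and 513 CPM in GFP+ stroma and at 161, 11.1, 78.2 and 39.1 CPM in tdTomato+ stroma. With E+P it stood at 313, 225 and 316 CPM in GFP+ stroma and at 4.80, 0.247 and 3.43 CPM in tdTomato+ stroma. The untreated mouse with the lowest tdTomato+ level, replicate 2, was the same for both genes. The subset difference of *Pi16* was 2.93 ± 0.72 without hormones (adjusted p = 0.0073, edgeR), 6.65 ± 1.03 with E+P (adjusted p = 3.2e-04) and 4.79 ± 0.63 over all mice (adjusted p = 5.2e-05).

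The calls on *Dpp4* and *Pi16* without hormones depended on how the mice entered the fit. With the mouse as a block, their adjusted p rose to 0.0179 and 0.0172 and the number of members called without hormones fell from 5 to 3 (edgeR). The differences over all mice and under E+P remained called for both genes with the block. Among fits that left out 1 mouse, *Dpp4* lost its call without untreated replicate 3 (adjusted p = 0.0157) or 4 (0.0218). *Pi16* lost it without untreated replicate 2, 3 or 4 or E+P replicate 1 or 3 (0.0140 to 0.0369), and the count of members called was 3 without untreated replicate 2, 3 without replicate 3 and 2 without replicate 4.

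*Cd34* had the narrowest spread of the large differences. It was counted at 560, 726, 558 and 450 CPM in untreated GFP+ stroma against 118, 43.0, 88.0 and 35.2 CPM in tdTomato+ stroma. With E+P the values were 676, 612 and 666 CPM against 35.8, 25.6 and 38.8 CPM, so the subsets stayed apart under both conditions. *Cd34* differed by 3.00 ± 0.33 without hormones (adjusted p = 9.1e-06, edgeR) and by 4.27 ± 0.41 with E+P (adjusted p = 2.4e-06).

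*Icam1*, the marker of committed preadipocytes, was counted at 238, 554, 399 and 336 CPM in untreated GFP+ stroma and at 51.3, 96.5, 107 and 105 CPM in tdTomato+ stroma. With E+P the values were 404, 297 and 438 CPM against 207, 136 and 178 CPM. The GFP+ values overlapped between the treatments, whereas each E+P tdTomato+ value was above each untreated one. *Icam1* differed by 2.06 ± 0.28 without hormones (adjusted p = 3.8e-05, edgeR) and by 1.12 ± 0.31 with E+P, which missed the threshold (adjusted p = 0.0106), although it passed with the mouse as a block (adjusted p = 1.1e-04) and without untreated replicate 1 (3.4e-04) or 2 (0.0065).

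*Cd55* separated the subsets without hormones but not with E+P. It was counted at 296, 218, 308 and 194 CPM in untreated GFP+ stroma and 112, 36.8, 57.5 and 117 CPM in tdTomato+ stroma, 1.63 ± 0.45 apart (adjusted p = 0.0132, edgeR; 0.0026 without E+P replicate 1). The groups did not overlap there, and *Cd55* was called by DESeq2 (adjusted p = 0.0023), by limma-voom (0.0023), in the fit of only the groups compared (0.0064) and without a low-count filter. Over all mice it differed by 0.78 ± 0.34 (adjusted p = 0.0741, edgeR) and was called by limma-voom (0.0095) and without a low-count filter. With E+P it stood at 195, 175 and 175 CPM in GFP+ stroma, and at 62.5, 231 and 279 CPM in tdTomato+ stroma. In 2 of 3 E+P mice *Cd55* was thus higher in the tdTomato+ library, and the difference was −0.08 ± 0.51 (adjusted p = 0.927). Over 7 mice it was higher in GFP+ stroma in 5 (p = 0.0781, exact sign-flip test).

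The markers of CD142+ cells, *F3* and *Clec11a*, were also higher in GFP+ stroma over all mice, by 1.18 ± 0.18 and 1.91 ± 0.29. *F3* was counted at 76.2, 112, 148 and 175 CPM in untreated GFP+ stroma against 49.9, 53.1, 93.2 and 52.8 CPM in tdTomato+ stroma, which overlapped, and at 96.8, 83.7 and 109 CPM against 39.3, 31.7 and 41.7 CPM with E+P, which did not. *F3* differed by 1.02 ± 0.24 without hormones (adjusted p = 0.0032, edgeR) and 1.35 ± 0.28 with E+P (adjusted p = 0.0012). The call on *F3* was lost without untreated replicate 2 (adjusted p = 0.0174) or 4 (0.0359) in the first comparison, and without any of E+P replicates 1 to 3 (0.0134 to 0.0143) in the second. *Clec11a* was the scarcest member, at 5.45, 18.4, 13.2 and 8.16 CPM in untreated GFP+ stroma and 3.23, 4.78, 8.76 and 6.21 CPM in tdTomato+ stroma. With E+P *Clec11a* stood at 12.7, 12.9 and 9.25 CPM against 1.84, 1.24 and 1.65 CPM. It differed by 0.95 ± 0.36 without hormones (adjusted p = 0.0430, edgeR, not called) and by 2.87 ± 0.45 with E+P (adjusted p = 6.2e-05).

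The count of members called was 5 of 7 without hormones and 5 of 7 with E+P, each with higher levels in GFP+ stroma, against 13.5% and 14.2% of all genes called higher in the same comparisons. Whether a subset difference changed with E+P is a separate test, the interaction of subset and treatment, in which none of the 7 members was called (edgeR, 0.0450% of genes called). The interaction reached an unadjusted p under 0.05 for 6 members, against 10.4% of all genes, while DESeq2 and limma-voom called none. It was 3.72 ± 1.12 for *Pi16* (adjusted p = 0.267), 3.32 ± 1.24 for *Dpp4* (adjusted p = 0.375), 1.91 ± 0.56 for *Clec11a* (adjusted p = 0.214) and −1.71 ± 0.68 for *Cd55* (adjusted p = 0.408).

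**Figure D2:**
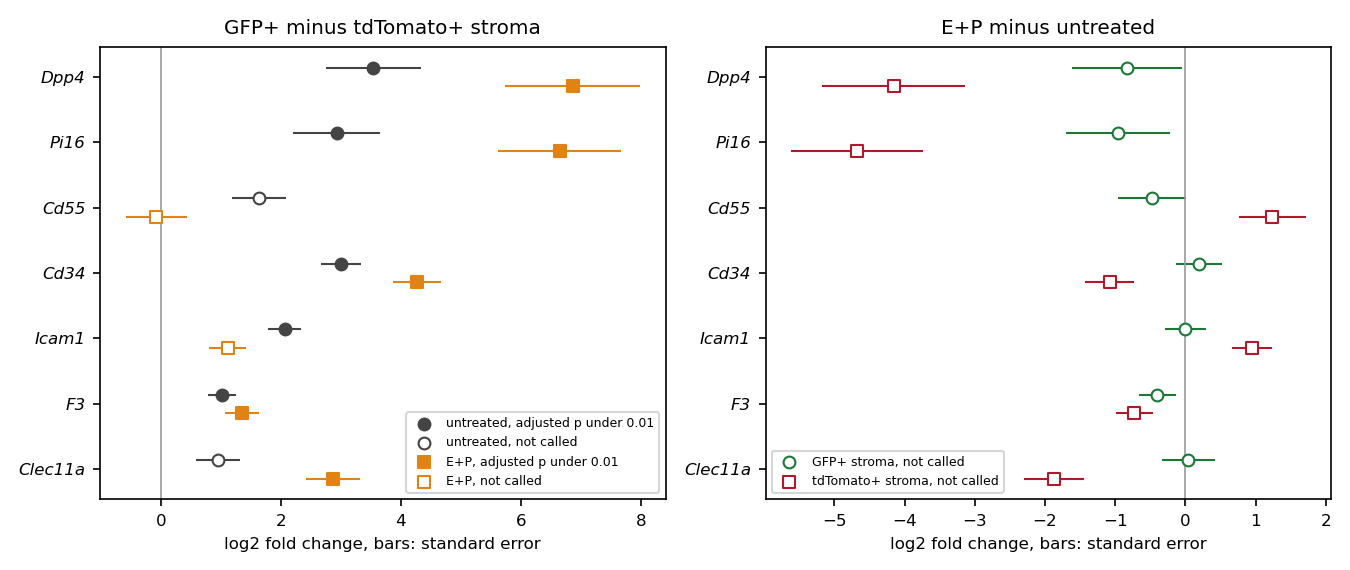
Log2 fold changes of the 7 genes with their standard errors (edgeR), between stromal subsets on the left and between E+P and untreated mice on the right. Filled symbols passed an adjusted p under 0.01, and the E+P changes of *Dpp4* and *Pi16* were negative in both subsets.

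The tdTomato+ level was also expressed as a share of the GFP+ level of the same mouse. Summed over 8 fibroblast genes, that share was 7.37% to 10.7% without hormones and 3.26% to 4.67% with E+P. The share for *Dpp4* had a median of 8.20% without hormones and 0.211% with E+P, and the share for *Pi16* had medians of 10.97% and 1.08%. For *Cd34* the medians were 11.8% and 5.29%, so with E+P the share of *Cd34* lay close to that of the fibroblast genes while those of *Dpp4* and *Pi16* lay below it in each of the 3 mice. *Pdgfra* itself had medians of 7.70% and 1.84%, and in E+P replicate 1 its share of 1.84% was below that of *Dpp4*, 2.35%, so shares under that of the fibroblast sum were not particular to *Dpp4* and *Pi16*. *Icam1* moved the other way, from a median of 24.2% to 45.8%, and *Cd55* from 28.3% to 131%. *F3* had medians of 55.0% and 38.3% and *Clec11a* of 62.8% and 14.4%. Endothelial cells can express *Icam1* and *Cd34*. The same share for the sum of 9 endothelial genes was 42.4% to 63.6% without hormones and 85.7% to 203% with E+P. In GFP+ stroma that sum was mostly *Tek*, with means of 190 of 226 CPM without hormones and 90.1 of 147 CPM with E+P. Over all mice 7 of the 9 genes were lower in GFP+ than in tdTomato+ stroma and 1 was higher (edgeR), against 42.0% of all genes called. The part of endothelial cells in the shares of *Icam1* and *Cd55* was not tested.

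**Figure D3:**
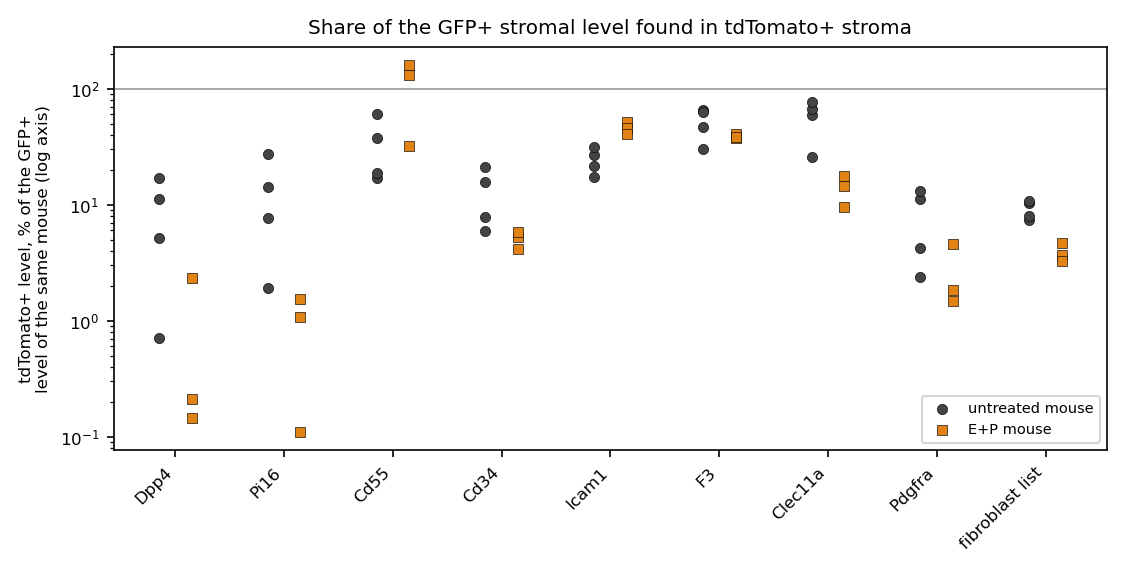
The level in tdTomato+ stroma as a percent of the GFP+ level of the same mouse on a log axis, with 1 point for each of 4 untreated and 3 E+P mice. *Dpp4* and *Pi16* lay below the fibroblast list in the 3 E+P mice, and *Cd55* exceeded 100% in 2 of them.

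The next question was whether hormone treatment changed the markers within GFP+ stroma. The interstitial pair, *Dpp4* and *Pi16*, was lower with E+P, while the preadipocyte marker *Icam1* and the general marker *Cd34* were not. The mean of *Dpp4* was 320 ± 60.9 CPM (SD, n = 4) without hormones and 178 ± 27.9 CPM (n = 3) with E+P. *Pi16* averaged 558 ± 35.4 and 285 ± 51.8 CPM. For both genes each E+P library lay below each untreated one, a separation that 6.06% of tested genes showed in that direction, and the exact two-sided permutation test over 7 libraries gave p = 0.0286, the smallest it can give.

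The calls across all genes on these 2 changes depended on the model. In the fit of all 14 stromal libraries, where the variable tdTomato+ libraries share 1 estimate of the spread with the GFP+ ones, none of the 7 members was called in GFP+ stroma (edgeR, 0.231% of genes called), none had an unadjusted p under 0.05 (8.04% of genes had), and DESeq2 and limma-voom also called none. There *Dpp4* changed by −0.83 ± 0.78 (adjusted p = 0.947) and *Pi16* by −0.96 ± 0.74 (adjusted p = 0.901). A fit of the 7 GFP+ stromal libraries alone called both and no other member, against 1.23% of 15199 genes called and 0.493% called lower. It gave −0.85 ± 0.15 for *Dpp4* (adjusted p = 0.0089, edgeR) and −0.98 ± 0.13 for *Pi16* (adjusted p = 0.0011). The estimates hardly differed between the fits and the standard errors did.

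The other 5 genes overlapped between E+P and untreated GFP+ stroma. *Cd55* averaged 254 ± 56.6 and 182 ± 11.4 CPM (p = 0.114, exact permutation test), with 11 of 12 pairs of libraries lower with E+P. *Cd34* averaged 574 ± 114 and 651 ± 34.6 CPM (p = 0.286, exact permutation). *Icam1* averaged 381 ± 133 and 380 ± 73.3 CPM (p = 0.914, exact permutation), and its log2 change was 0.00 ± 0.29. *F3* averaged 127.9 ± 42.9 and 96.4 ± 12.6 CPM, and *Clec11a* 11.3 ± 5.74 and 11.6 ± 2.07 CPM.

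Ratios within a library do not depend on its scaling and are given as a description. In GFP+ stroma the ratio of *Dpp4* to *Cd34* counts was 0.491 to 0.648 without hormones and 0.238 to 0.316 with E+P. The ratio of *Pi16* to *Icam1* was 1.05 to 2.49 without hormones and 0.723 to 0.774 with E+P. Neither ratio overlapped between the treatments. Nor did *Dpp4* to *Icam1* (0.687 to 1.53 and 0.398 to 0.550) or *Pi16* to *Cd34* (0.799 to 1.14 and 0.367 to 0.475). The ratio of *Cd55* to *Cd34* did not overlap either, at 0.300 to 0.551 and 0.264 to 0.289. The ratio of *Pi16* to *Dpp4*, 1.52 to 2.00 and 1.37 to 1.95, and that of *Icam1* to *Cd34*, 0.425 to 0.763 and 0.486 to 0.658, did overlap. So did *Clec11a* to *F3*, at 0.0467 to 0.164 and 0.0850 to 0.155. The share of other gene pairs without overlap was not determined.

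The lists to which the members belong were examined next. Of 12 genes of interstitial progenitors, 7 had every E+P library of GFP+ stroma below every untreated one and 5 overlapped. Among all tested genes, 6.06% were lower with E+P in this way. The 7 were *Dpp4*, *Pi16*, *Sema3c*, *Dact2*, *Pcolce2*, *Smpd3* and *Limch1*. *Smpd3*, which encodes a neutral sphingomyelinase, went from 175 ± 34.6 to 13.6 ± 4.39 CPM and *Limch1*, which encodes an activator of non-muscle myosin, from 66.7 ± 13.6 to 16.5 ± 3.21 CPM. *Sema3c*, which encodes a secreted semaphorin, went from 471 ± 93.4 to 216 ± 51.0 CPM and *Pcolce2*, an enhancer of procollagen processing, from 192 ± 13.2 to 89.99 ± 11.6 CPM. *Wnt2*, *Bmp7*, *Anxa3* and *Ly6c1*, with *Cd55*, were the genes that overlapped.

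Of 12 genes of committed preadipocytes, 2 were higher with E+P without overlap, 1 was lower and 9 overlapped. *Ggt5*, a gamma-glutamyltransferase, went from 117 ± 28.9 to 259 ± 17.98 CPM and *Col4a1*, a basement membrane collagen, from 3368 ± 386 to 4582 ± 426 CPM. *Fabp4*, the adipocyte fatty acid binding protein, was the lower gene, at 76.6 ± 50.2 and 24.5 ± 9.08 CPM. All 10 genes of the CD142+ list overlapped. Without regard to list, 13.0% of tested genes did not overlap between the treatments, and 6.91% were higher with E+P in this way.

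In the fit of all stromal libraries, 0 of 12 interstitial progenitor genes, 1 of 12 committed preadipocyte genes (higher) and 0 of 10 CD142+ genes were called with E+P in GFP+ stroma, against 0.231% of all genes. Their median log2 changes were −0.81, 0.02 and 0.02, beside 0.00 over all genes tested. In the fit of the GFP+ stromal libraries alone, applied to the lists after the values were seen, 6 of 12 interstitial genes were lower, 1 of 12 committed preadipocyte genes was higher and 0 of 10 CD142+ genes were called, against 1.23% of all genes called and 0.493% called lower, with medians of −0.83, 0.00 and 0.00. The 6 were the members *Dpp4* and *Pi16* with *Sema3c* (adjusted p = 0.0068, edgeR), *Pcolce2* (1.7e-04), *Smpd3* (7.3e-05) and *Limch1* (7.5e-05). The lists were chosen with earlier results of these data known, so these counts are a description. The endothelial list in GFP+ stroma, whose sum was led by *Tek*, ranged from 190.4 to 273 CPM without hormones and 139 to 158 CPM with E+P. The luminal list ranged from 18.3 to 80.6 CPM and from 4.08 to 5.28 CPM, and the fibroblast list from 31862 to 61334 and from 49437 to 60482 CPM, and the part of these in the changes was not tested.

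**Figure D4:**
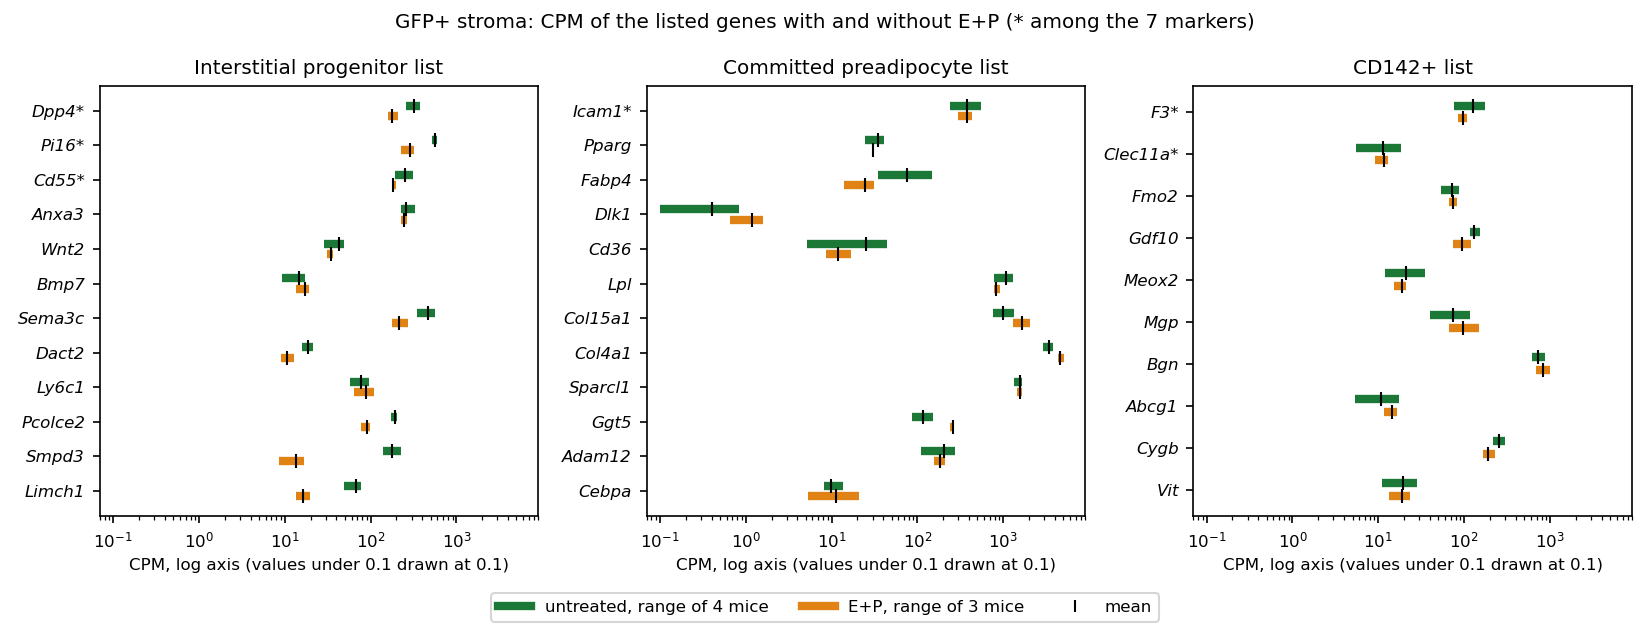
CPM in GFP+ stroma on a log axis for the 3 marker lists, with bars for the range of 4 untreated and 3 E+P mice and ticks for the means. In the interstitial progenitor list 7 of 12 pairs of bars are apart, with the E+P bar lower in each, against 6.06% of all tested genes.

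In tdTomato+ stroma the E+P changes of *Dpp4* and *Pi16* were larger than in GFP+ stroma, and so were their standard errors. *Pi16*, *F3* and *Clec11a* were lower in each E+P library than in each untreated one, and *Icam1* was higher in each, against 10.7% of tested genes without overlap, 5.48% lower and 5.20% higher with E+P. The exact permutation p was 0.0571 for *Pi16* and 0.0286 for *F3*, *Clec11a* and *Icam1*, which is the smallest possible, and 0.0857 for *Dpp4*, of which 11 of 12 pairs were lower. With TMM factors taken over all rows of the table, p was 0.0571 for *F3* and *Clec11a* as well. None of the 7 members was called in edgeR's fit (0.124% of genes), although all 7 had an unadjusted p under 0.05, as did 15.6% of genes. DESeq2 called 3 and limma-voom none. The log2 changes were −4.16 ± 1.02 for *Dpp4* (adjusted p = 0.0871, edgeR), −4.68 ± 0.94 for *Pi16* (0.0498), 1.24 ± 0.48 for *Cd55* (0.236) and −1.87 ± 0.42 for *Clec11a* (0.0492). *Icam1* changed by 0.95 ± 0.29 (0.125). The sum of 7 luminal epithelial genes, a lineage with high *F3*, was 17.96 to 447 CPM in untreated and 2.88 to 33.9 CPM in E+P tdTomato+ stroma, and its part in the *F3* change was not tested. The lowest E+P values, 0.346 and 0.306 CPM of *Dpp4* and 0.247 CPM of *Pi16*, rest on 7, 5 and 5 counts.

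Luminal cells served as the reference. Over all 28 libraries, all 7 members differed between the lineages, against 63.5% of 19569 genes, and 6 were higher in stroma, as were 33.0% of genes. *Pi16* was higher in stroma by 10.01 ± 0.60 and *Cd34* by 8.78 ± 0.32 (adjusted p = 4.7e-12 and 6.5e-17, edgeR). *Pi16* had no count in any of the 3 E+P tdTomato+ luminal libraries and at most 1.08 CPM in another luminal library. *Dpp4* was higher in stroma by 5.02 ± 0.44, *Clec11a* by 3.33 ± 0.29, *Icam1* by 2.38 ± 0.21 and *Cd55* by 1.72 ± 0.19. *F3* was the exception, lower in stroma with a log2 difference of −2.40 ± 0.17 (adjusted p = 3.8e-12, edgeR).

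The luminal level was set beside the GFP+ stromal level under the same treatment, as a percent of the group means. For the 8 fibroblast genes together, it was 0.155% in untreated GFP+ luminal cells and 0.0624% in untreated tdTomato+ luminal cells. *Pi16* (0.112% and 0.0272%) and *Cd34* (0.176% and 0.0908%) were of the same order. *Dpp4* was at 1.17% and 0.794%, *Clec11a* at 5.32% and 6.13%, *Icam1* at 10.6% and 7.85% and *Cd55* at 39.6% and 18.5%. The untreated values of these 4 were larger than the fibroblast share, and *F3* reached 166.1% and 367%. With E+P, *Dpp4* in tdTomato+ luminal cells was at 0.0857%, beside 0.0767% for the fibroblast sum. That sum had a mean of 42.2 CPM, of which *Dcn* made up 35.5 CPM. In untreated tdTomato+ luminal cells, the fibroblast sum was 75.2 CPM in replicate 3 and 7.44 to 18.6 CPM in the other libraries.

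*F3* ran in opposite directions in the 2 lineages. In luminal cells it was counted at 235, 197, 278 and 140 CPM in untreated GFP+ libraries and 299, 758, 532 and 290 CPM in tdTomato+ libraries, and at 258, 183 and 318 CPM against 819, 895 and 943 CPM with E+P. It was lower in GFP+ luminal cells in 7 of 7 mice, with a log2 difference of −1.50 ± 0.24 (adjusted p = 2.4e-04, edgeR), and higher in GFP+ stroma in 7 of 7. The difference between these differences was 2.57 on the log2 scale and had the same sign in 7 of 7 mice (p = 0.0156, exact sign-flip test, the smallest possible). This last comparison was chosen after the values were seen.

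*Dpp4* and *Cd55* were higher in GFP+ than in tdTomato+ luminal cells, so that with *F3* 3 members were called, against 34.7% of 16538 genes called, 15.7% higher and 19.0% lower in GFP+ cells. *Dpp4* differed by 2.03 ± 0.41 (adjusted p = 9.5e-04, edgeR) and *Cd55* by 1.18 ± 0.13 (1.1e-05), and *Cd55* was higher in 7 of 7 mice. *Dpp4* was higher in 5 of 7 (p = 0.0625, exact sign-flip test), its untreated libraries overlapped, and its E+P tdTomato+ libraries held 4, 1 and 2 counts. Without E+P replicate 2 the call on *Dpp4* was lost (adjusted p = 0.0120) and *Cd34* was called (0.0062). *Pi16* was too scarce to be tested there. With E+P, *Dpp4* in tdTomato+ luminal cells went from 3.20, 2.56, 1.52 and 2.87 CPM to 0.320, 0.0427 and 0.0951 CPM, a fitted change of −4.19 ± 0.66 (adjusted p = 5.0e-04, edgeR). Those E+P values rest on 4, 1 and 2 counts, so the fold depends on the prior count of the fit. *Cd55* went from 45.6, 36.7, 44.1 and 61.7 CPM to 25.7, 21.8 and 20.7 CPM, by −1.02 ± 0.19 (adjusted p = 0.0017, but 0.0118 without E+P replicate 2 and 0.0185 without replicate 3). These were the 2 members called, both lower, against 14.1% of genes called and 6.44% called lower. In GFP+ luminal cells *Cd55* went from 101 ± 20.2 to 56.6 ± 10.4 CPM without overlap, as 13.4% of genes did in that direction (adjusted p = 0.0104, edgeR; 0.0080 without untreated replicate 2), and no member was called, against 5.96% of genes. There, 2 members had an unadjusted p under 0.05, as did 29.9% of genes, and DESeq2 and limma-voom each called 1.

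Levels of different genes were compared per kilobase of exon (CPM per kb). In untreated GFP+ stroma the order was *Pi16* (87.6), *Icam1* (87.5), *Cd34* (78.7), *Cd55* (52.3), *F3* (50.6) and *Dpp4* (50.6), in which each pair of neighbours overlapped between libraries, and *Clec11a* (3.801) lay apart. With E+P the GFP+ order was *Cd34* (89.3) and *Icam1* (87.1), then *Pi16* (44.7), *F3* (38.2) and *Cd55* (37.5), then *Dpp4* (28.2) and last *Clec11a* (3.91), with no overlap between libraries from *Icam1* to *Pi16*, from *Cd55* to *Dpp4* or from *Dpp4* to *Clec11a*. *Pi16* thus went from the first place to the third. In E+P tdTomato+ stroma *Icam1* (39.8) and *Cd55* (39.3) led and *Dpp4* (0.234) was last. *F3* was first in all 4 luminal groups, at 84.1 to 351 CPM per kb.

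The genes most like each member were sought among 8350 protein-coding genes with a mean of at least 10 CPM, by the mean absolute difference of centred log2 CPM over the 14 stromal libraries. For *Dpp4* they were *Wnt2* (0.54), *Pi16* (0.58) and *Pcdh20* (0.69), and for *Pi16* they were *Pcdh20* (0.56), *Dpp4* (0.58) and *Wnt2* (0.65). *Dpp4* and *Pi16* were therefore among each other's 3 nearest genes. *Cd34* was nearest to *Cercam*, *Lrrc17* and *Islr* (0.20 to 0.21), genes with high levels in GFP+ and low levels in tdTomato+ stroma. *Cd55* was nearest to *Srgap3* (0.28), *Icam1* to *B4galt5* (0.30), *F3* to *Pltp* (0.23) and *Clec11a* to *Epha3* (0.38). These libraries share the split between subsets, and the values are a description. The *Wnt2* and *Pcdh20* levels reached 0 counts in E+P tdTomato+ stroma. With a prior count of 0.5, *Wnt2* was no longer among the 3 nearest genes of either member, nor *Pcdh20* among those of *Pi16*, while *Pcdh20* remained among those of *Dpp4*.

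**Figure D5:**
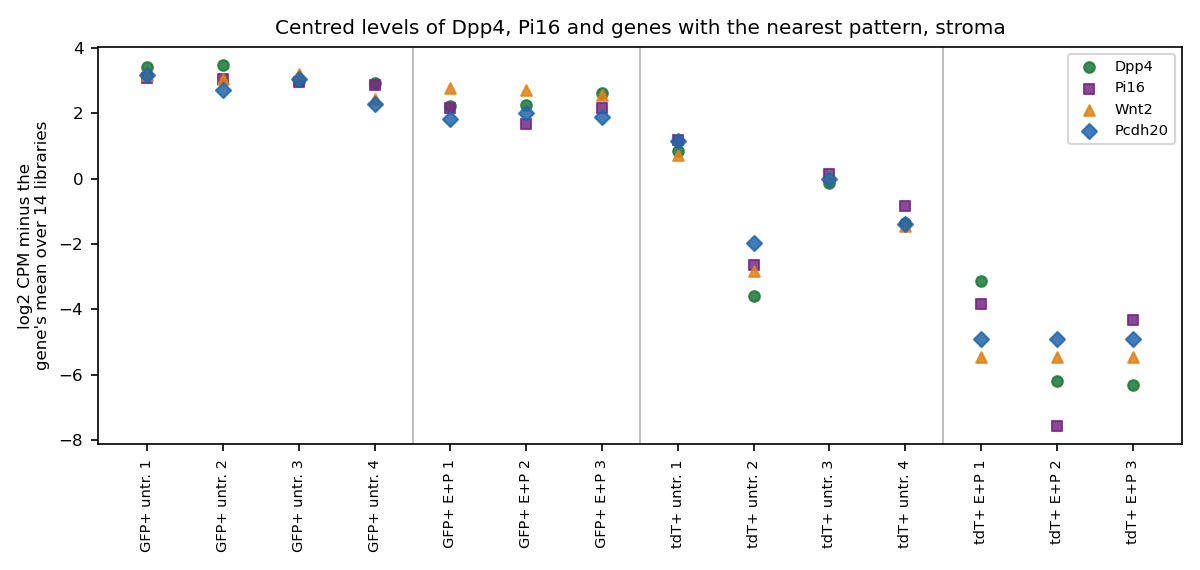
Log2 CPM of *Dpp4*, *Pi16*, *Wnt2* and *Pcdh20* in the 14 stromal libraries, each minus the gene's own mean over them. The 4 genes are above their means in GFP+ stroma, and their lowest values are in E+P tdTomato+ stroma. For *Dpp4*, untreated tdTomato+ replicate 2 lay below E+P tdTomato+ replicate 1.

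Between the stromal subsets over all mice, 10 of 12 interstitial progenitor genes were higher in GFP+ stroma and none lower. Their median log2 difference was 3.79, beside −0.01 over all genes, of which 42.0% were called and 20.6% were called higher. All 8 fibroblast genes were also higher in GFP+ stroma, with a median of 4.12. A difference of this size was thus not particular to the interstitial list. Interstitial non-members with the largest differences were *Wnt2* (7.66 ± 0.70), *Ly6c1* (4.59 ± 0.62) and *Bmp7* (3.99 ± 0.43). *Wnt2* had no count in E+P tdTomato+ stroma, so its value over all mice is no bound and depends on the prior count of the fit. Without hormones it differed by 3.33 ± 0.56 and *Ly6c1* by 3.52 ± 0.75. Of the committed preadipocyte genes 6 of 12 were higher and 3 lower, with a median of 0.73. *Col15a1* (3.96 ± 0.19), *Lpl* (3.35 ± 0.16) and *Adam12* (3.34 ± 0.26) were higher in GFP+ stroma, and *Cd36* (−3.24 ± 0.42), *Dlk1* (−2.02 ± 0.56) and *Fabp4* (−1.75 ± 0.35) were lower. *Dlk1* was scarce, with group means of 0.406 CPM without hormones and 1.18 CPM with E+P in GFP+ stroma. In tdTomato+ stroma its means were 2.32 and 3.496 CPM. The lowest untreated GFP+ library held 0 CPM of *Dlk1*. Within either treatment alone *Dlk1* was not called (adjusted p = 0.0161 without hormones and 0.143 with E+P, edgeR). *Cd36* and *Fabp4* are also expressed by capillary endothelium. The part of endothelial, pericyte, smooth muscle or skeletal muscle cells in their differences was not tested. In the CD142+ list 8 of 10 were higher, led by *Gdf10* (3.09 ± 0.30), *Fmo2* (2.01 ± 0.19) and *Bgn* (1.53 ± 0.12), and *Meox2* (−0.90 ± 0.19) was lower.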

How the data were processed

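Raw read counts per gene, deposited by the authors for 28 libraries, were used. Per the labels and methods, 2 ng of RNA of variable integrity went into a SMARTer stranded pico kit, and paired reads were aligned with STAR 2.5.2a to GRCm38.p5; the GENCODE release and strand setting are not given in the sources used here. Symbols and coordinates came from GENCODE M21, in which 50376 of 50600 IDs were found. Genes were filtered with filterByExpr, scaled by TMM and tested with edgeR 4.0.16 (R 4.3.3; robust quasi-likelihood test, Benjamini-Hochberg adjusted p under 0.01) over all groups of a lineage. Single-library CPM use TMM factors of the filtered genes and log2 CPM a prior count of 2; factors over all rows were replaced after their values were seen. Members and lists were chosen with earlier results of these data known. Named genes were the members, their 3 nearest genes, and up to 3 other list genes in each direction with the largest called difference between stromal subsets; list genes named for their E+P values in GFP+ stroma were chosen after those values were seen. Alternatives were DESeq2 1.42.0, limma-voom 3.58.1, other scalings, no filter, an adjusted p under 0.05, a fit of only the groups compared, a replicate block and leaving out each mouse. The scripts were tested on simulated data. GFP+ and tdTomato+ libraries with the same mouse number are from 1 mouse; their deviations correlated at a mean r of 0.0589 in stroma and 0.194 in luminal cells over 7 pairs each, against −0.0230 and −0.0749 between mice. Counting precision follows from library totals of 8623383 to 24583803.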

Additional observations from a re-analysis of the deposited data

Results flagged for a closer look

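*F3* in untreated tdTomato+ stroma had a library far from the other 3, replicate 3 at 93.2 CPM against 49.9 to 53.1 CPM. The gap made up 0.926 of the group's range, above the critical value of 0.829, in 1 of 27 groups tested, and chance gives about 1 in 20. The same library had the highest sum of 7 luminal epithelial genes in its group, 447 CPM against 17.96 to 265 CPM, and the part of luminal RNA in its *F3* level was not tested.

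The difference between GFP+ and tdTomato+ cells in stroma was set against that in luminal cells of the same mice, in a test chosen after the values were seen. Its p-values are not adjusted for the 7 genes. The stromal minus the luminal log2 difference was 4.27 for *Dpp4*, 4.19 for *Pi16*, 2.87 for *Cd34*, 2.57 for *F3* and 2.00 for *Clec11a*, with the same sign in 7 of 7 mice (p = 0.0156 each, exact two-sided sign-flip test, the smallest possible). It was 1.00 for *Icam1*, with 6 of 7 mice (p = 0.0469, exact), and −0.09 for *Cd55* (p = 0.891, exact), of 7 genes tested. For *F3* the value reflects a change of sign, from 1.17 in stroma to −1.40 in luminal cells. For *Pi16* and *Cd34* some luminal libraries held 0 counts, so their values depend on the prior count. For *Pi16* the sign in 7 of 7 mice, and with it p, also rests on the prior: in untreated replicate 1 the value was 0.0079, and the ratio of CPM without a prior was larger in luminal cells (1.08 to 0.206) than in stroma (591 to 161).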

How the results depend on the processing

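With the mouse as a replicate block, 3 members were called between untreated stromal subsets in place of 5, and 2 to 5 when each mouse was left out; the block changed no other count of members by over 1.5 times. With E+P in GFP+ stroma, 2 were called without a low-count filter and 2 in the fit of only the groups compared, in place of 0; there 6 of 12 interstitial genes were called in place of 0. With E+P in tdTomato+ stroma, 2 were called at an adjusted p under 0.05, 3 by DESeq2 and 7 without a filter, in place of 0, and in the interaction 6 without a filter. In GFP+ luminal cells with E+P, 1 was called at an adjusted p under 0.05, with DESeq2 size factors, with library size only, by DESeq2, by limma-voom and without a filter, and 0 to 1 when each mouse was left out. In tdTomato+ luminal cells leaving out mice gave 1 to 2. The causes were not tested.

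Some small changes reversed. *Cd55* between E+P stromal subsets was 0.19 by limma-voom, 0.15 with the replicate block and −0.54 to 0.32 leaving out mice. *Icam1* with E+P in GFP+ stroma was −0.0090 with DESeq2 size factors and by DESeq2, −0.012 in the fit of only the groups compared and −0.18 to 0.22 leaving out mice. *Cd34* there was −0.021 with the replicate number as block, and *Clec11a* −0.19 to 0.37 leaving out mice. *Clec11a* between luminal subsets was 0.10 with library size only and −0.52 to 0.26 leaving out mice, and with E+P in GFP+ luminal cells −0.082 with library size only, −0.0045 by DESeq2 and −0.44 to 0.76 leaving out mice.

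Over all genes with E+P, GFP+ stroma had 41 calls, against 126 at an adjusted p under 0.05, 192 by DESeq2, 100 by limma-voom, 459 without a filter and 187 in the fit of only the groups compared. TdTomato+ stroma had 22, against 143, 384, 8, 840 and 0 in the same order, with 34 by library size only and 45 with the replicate number as block. The interaction had 8, against 43, 4 by limma-voom, 506 without a filter and 13 under the mouse block, and DESeq2 called 90 higher and 21 lower. Luminal GFP+ cells had 985, against 2475 at an adjusted p under 0.05, 2035 by DESeq2 and 560 in the fit of only the groups compared; tdTomato+ luminal cells had 2327, against 4444 and 3558 by the first 2 of these. Leaving out each mouse gave 16 to 46 calls in GFP+ stroma, 1 to 85 in tdTomato+ stroma, 1 to 13 in the interaction, 169 to 962 in GFP+ and 1140 to 2144 in tdTomato+ luminal cells, with the lowest counts of all 5 without an E+P mouse. Between E+P stromal subsets it gave 3167 to 5214 in place of 4988. The split of calls moved with library size scaling, from 6455 higher and 5972 lower to 5112 and 8053 in the lineage comparison, from 2601 and 3144 to 3539 and 2284 between luminal subsets, and with E+P from 525 and 460 to 357 and 636 in GFP+ and from 1262 and 1065 to 731 and 2165 in tdTomato+ luminal cells. That scaling shifted the median of all genes to −0.27 in the lineage comparison, −0.14 and −0.27 with E+P in luminal cells and 0.14 between luminal subsets. It put *Pi16* at 487 CPM in untreated and *Cd55* and *Cd34* at 160 and 572 CPM in E+P GFP+ stroma. With longest transcripts, 3 of 7 members kept their place in untreated tdTomato+ stroma. E+P and untreated mice of 1 number are different animals (mean r of 0.0106 in stroma), so that block pairs nothing.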
